A study of Homo sapiens with 12 samples.

Results

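The genes described here are 38 genes of glycolysis and of the hypoxia response, out of 57879 gene rows in the deposited tables. They were taken from a list of gene symbols and matched through Ensembl identifiers. The rule uses no measured value, but the list was drawn up with earlier results of these data known. The list holds 16 glycolytic enzyme genes, from hexokinase to lactate dehydrogenase. It also holds 20 other targets of the hypoxia-inducible factors (HIF): glucose transporters, flux regulators, oxygen-sensing prolyl hydroxylases, and genes of secretion, pH, mitophagy, collagen folding and chromatin. The last 2 are HIF1A and EPAS1, which encode the oxygen-regulated HIF alpha subunits themselves. Of the 38, 37 reached the level needed for a test, which was 1 FPKM (fragments per kilobase, corrected for the number mapped) in at least 2 libraries; 13907 genes of the whole table did so. The member left out was HK2, a hexokinase, listed at 0.0592 to 0.168 FPKM in the 8 libraries.

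RNA was taken from A549 cells, an established human lung adenocarcinoma line, in 4 groups. The TIF1γ line stably overexpresses TIF1γ (gene symbol TRIM33, a ubiquitin ligase) from a lentiviral construct, and its control group is labelled vector. The sh-TAF15 line stably carries a lentiviral short hairpin RNA against TAF15, an RNA-binding protein, and its control group is labelled sh-NC; per the labels sh-NC and vector cells are both wild type. Libraries 2 and 3 of the TIF1γ line, 2 and 3 of the sh-TAF15 line, 2 of the sh-NC line, and 1, 2 and 3 of the vector line were at hand. The other 4 of 12 labelled samples are not analysed here. The sh-NC values therefore come from 1 library, with no spread of their own. The study text calls the replicates biological without saying whether they are separate lines or cultures of the same line, so the p-values cover only the spread between these libraries. The cells grew in standard medium in a humidified CO2 incubator, and the labels name no oxygen treatment.

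Glycolysis splits glucose into pyruvate, and lactate dehydrogenase turns pyruvate into lactate so that the pathway can run without oxygen. In cells with enough oxygen, the prolyl hydroxylases EGLN1 and EGLN3 mark the HIF alpha subunits for destruction through the VHL ligase. When oxygen falls the subunits persist, pair with ARNT, bind DNA at a core of the letters ACGTG or GCGTG and raise transcription of glucose transporters, glycolytic enzymes and genes such as VEGFA and CA9. HIF activity is set mainly at the level of the alpha protein, which RNA does not measure.

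The relative sequencing depth, read from the step that 1 fragment makes in low FPKM values and set to 1 in vector library 1, was between 0.789 and 1.04; the absolute depth is unknown, so no counting interval is given. TRIM33 stood at 8.03 and 6.14 FPKM in TIF1γ libraries, against 2.23, 2.10 and 1.27 FPKM in vector libraries, so the higher level goes with its label (log2 fold change 1.46 ± 0.272 SE; limma adjusted p = 0.13). TAF15 was matched to no row by name and is not analysed here, so the knockdown behind the sh-TAF15 label was not checked. The A549 marker genes did not agree between the hairpin lines and the others: KRT19 (a keratin) was at 0.243 to 0.775 FPKM in the 3 sh-TAF15 and sh-NC libraries, against 26.9 to 61.7 FPKM in the 5 TIF1γ and vector libraries. KRT8 and KRT18 are listed at 0 in TIF1γ libraries and at 1129 FPKM or more elsewhere, so they were not tested. Of the markers of other cells, PTPRC stayed at 0.0227 FPKM or below, CD3E is listed at 0 in all 8 libraries, and 4 endothelial markers stayed under 1 FPKM. The myeloid markers CD14 and ITGAM ran opposite ways: CD14 had 4.30 to 10.1 FPKM in the hairpin libraries, against 11.7 to 35.0 FPKM in the others, and ITGAM 1.14 to 2.42 FPKM in the hairpin libraries, against 0.111 to 0.859 FPKM in the others. The 5 fibroblast markers summed to 4.14 and 4.19 FPKM in sh-TAF15 libraries and 3.09 FPKM in the sh-NC library, against 0.378 and 0.603 FPKM in TIF1γ libraries and 0.382 to 1.22 FPKM in vector libraries. Apart from those of ALDH1A1 and CDKN2A, these shifts move with the line. The part of any of them in the results was not tested.

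Most of the glycolytic enzyme mRNA came from a few very abundant genes. GAPDH, the dehydrogenase of the payoff phase, was between rank 9 and rank 15 of all tested genes in every library. ALDOA, TPI1, GAPDH, ENO1 and PKM together made up between 79.2% and 89.2% of the FPKM summed over the enzymes. The enzymes as a whole held 2.51% and 2.35% of all FPKM in sh-TAF15 libraries, 2.44% in the sh-NC library, 2.76% and 2.28% in TIF1γ libraries, and 2.45%, 2.19% and 2.36% in vector libraries. The groups overlapped on this share. PGK1, a kinase that makes ATP, varied least of the tested members, with a highest library 1.24 times its lowest.

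**Figure D1:**
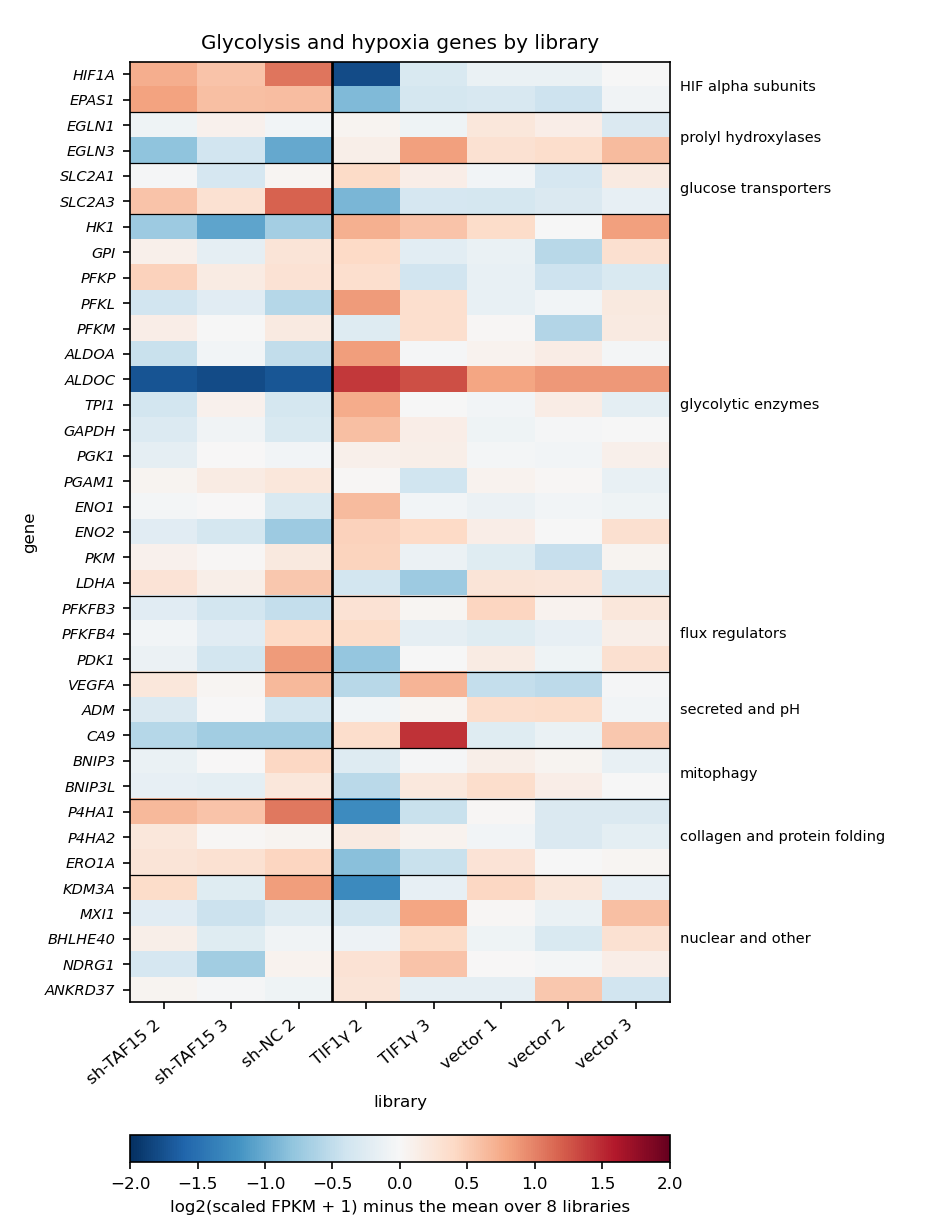
The 37 tested genes (rows, grouped by role) in the 8 libraries (columns); colour is log2(scaled FPKM + 1) minus the mean of that gene over all libraries, red above and blue below, and the vertical line parts the hairpin lines from the TIF1γ and vector lines. ALDOC, HK1 and EGLN3 are low left of the line and HIF1A, EPAS1, P4HA1 and SLC2A3 are high there.

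The clearest pattern among these genes ran between the hairpin lines (sh-TAF15 and sh-NC) and the TIF1γ and vector lines. Both HIF alpha subunit genes, the glucose transporter SLC2A3, the collagen hydroxylase P4HA1, the oxidase ERO1A and LDHA were higher in the hairpin lines. ALDOC, HK1, ENO2, PFKL, EGLN3, CA9 and PFKFB3 were lower. This made 13 of 37 tested members, or 35.1%, at an adjusted p under 0.05 by limma, 6 higher and 7 lower. Of all 13907 tested genes, 41.6% passed in this contrast (20.4% higher, 21.1% lower), so the members changed no more often than genes at large. The contrast averages the sh-TAF15 and sh-NC groups against the TIF1γ and vector groups. Construct, line and any culture or sequencing batch cannot be told apart in it, and neither can fewer cells of a kind and less RNA per cell.

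HIF1A, the alpha subunit found in nearly all cells, had 73.4 and 68.4 FPKM in sh-TAF15 libraries and 90.6 FPKM in the sh-NC library, against 11.7 and 30.2 FPKM in TIF1γ libraries and 34.9, 35.4 and 36.2 FPKM in vector libraries. Every hairpin library was above every other library, and TIF1γ library 2 was the lowest by far. The log2 fold change was 1.43 ± 0.288 (SE; limma adjusted p = 0.00252). EPAS1, which encodes HIF-2 alpha, had 63.8 and 57.8 FPKM in sh-TAF15 libraries and 54.9 FPKM in the sh-NC library, against 18.7 and 24.3 FPKM in TIF1γ libraries and 24.9, 23.9 and 28.7 FPKM in vector libraries. Its groups did not overlap either, with a log2 fold change of 1.10 ± 0.202 (SE; limma adjusted p = 0.00109). HIF1A was 56.7% of the summed FPKM of the pair on average in the hairpin lines and 53.5% in the others, which an exact permutation test over the libraries did not separate (p = 0.714).

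EGLN3, a prolyl hydroxylase that HIF itself induces, had 4.35 and 6.45 FPKM in sh-TAF15 libraries and 3.51 FPKM in the sh-NC library, against 8.94 and 13.5 FPKM in TIF1γ libraries and 9.22, 9.77 and 11.3 FPKM in vector libraries. It was lower in every hairpin library, the opposite way to HIF1A and EPAS1 (log2 fold change −1.25 ± 0.241 SE; limma adjusted p = 0.00148). EGLN1, the main oxygen sensor of the family, lay between 9.15 and 15.0 FPKM in all libraries with overlapping groups and no call (−0.03 ± 0.209 SE; limma adjusted p = 0.914). EGLN1 therefore made up 74.3% of the pair's FPKM on average in the hairpin lines and 53.6% in the others.

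The 2 glucose transporters differed from each other. SLC2A3, a high-affinity transporter best known from neurons, had 11.8 and 10.0 FPKM in sh-TAF15 libraries and 18.0 FPKM in the sh-NC library, against 3.40 and 4.95 FPKM in TIF1γ libraries and 4.98, 5.31 and 5.53 FPKM in vector libraries. All hairpin libraries were above all others (log2 fold change 1.26 ± 0.226 SE; limma adjusted p = 9.43e-04). SLC2A1, the general transporter and the more abundant of the pair, ran from 45.0 to 82.1 FPKM with no separation (−0.16 ± 0.202 SE; limma adjusted p = 0.528).

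Among the enzymes 5 of 15 (33.3%) were called, against 41.6% of all tested genes. None of the 5 most abundant enzymes was among them. ALDOC, the brain-type aldolase, had 1.53 and 1.48 FPKM in sh-TAF15 libraries and 1.53 FPKM in the sh-NC library, against 21.5 and 17.2 FPKM in TIF1γ libraries and 12.1, 13.0 and 12.2 FPKM in vector libraries. The hairpin libraries lay close together at a fraction of the rest, and the fitted level was 0.141 times that of the other lines (log2 fold change −2.83 ± 0.205 SE; limma adjusted p = 4.6e-07), on the log2(FPKM + 1) scale, which understates changes at such low levels. HK1, the housekeeping hexokinase, had 10.4 and 8.45 FPKM in sh-TAF15 libraries and 10.5 FPKM in the sh-NC library, against 29.2 and 23.3 FPKM in TIF1γ libraries and 20.3, 15.9 and 27.1 FPKM in vector libraries. Its groups did not overlap (−1.30 ± 0.227 SE; limma adjusted p = 7.83e-04), and HK1 was 99.1% to 99.7% of hexokinase 1 and 2 FPKM throughout.

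ENO2, the neuronal enolase, had 24.2 and 23.3 FPKM in sh-TAF15 libraries and 16.4 FPKM in the sh-NC library, against 38.7 and 32.9 FPKM in TIF1γ libraries and 27.5, 25.4 and 30.0 FPKM in vector libraries (log2 fold change −0.80 ± 0.186 SE; limma adjusted p = 0.00447). PFKL, the liver-type phosphofructokinase, had 39.0 and 45.8 FPKM in sh-TAF15 libraries and 33.4 FPKM in the sh-NC library, against 91.7 and 55.8 FPKM in TIF1γ libraries and 40.3, 43.7 and 49.4 FPKM in vector libraries. As deposited the PFKL groups overlapped; after scaling they did not (−0.73 ± 0.202 SE; limma adjusted p = 0.0112). LDHA, which makes lactate, was the only enzyme gene called higher, with 1562 and 1458 FPKM in sh-TAF15 libraries and 1831 FPKM in the sh-NC library, against 973 and 673 FPKM in TIF1γ libraries and 1339.5, 1358 and 865 FPKM in vector libraries (0.61 ± 0.22 SE; limma adjusted p = 0.0395). The call for LDHA was lost when TIF1γ library 3, vector library 1 or 3, or sh-TAF15 library 2 was left out, with adjusted p between 0.0544 and 0.0898.

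The abundant aldolase ALDOA had 2586 and 3523 FPKM in sh-TAF15 libraries and 2443 FPKM in the sh-NC library, against 6159 and 2970 FPKM in TIF1γ libraries and 3209, 3480 and 2852 FPKM in vector libraries (−0.60 ± 0.238 SE; limma adjusted p = 0.056). It was called without TIF1γ library 3 (adjusted p = 0.0131) or sh-TAF15 library 3 (0.0412). GAPDH ran from 7046 to 13285 FPKM, with its highest value in TIF1γ library 2 (−0.40 ± 0.207 SE; limma adjusted p = 0.129). PFKP, the platelet-type phosphofructokinase, had 387 and 328 FPKM in sh-TAF15 libraries and 334 FPKM in the sh-NC library, against 346 and 184 FPKM in TIF1γ libraries and 221, 187 and 189 FPKM in vector libraries (0.46 ± 0.223 SE; limma adjusted p = 0.113). It was not called, and TIF1γ library 2 reached the hairpin range; without that library its adjusted p was 0.0328. GPI, PFKM, TPI1, PGK1, PGAM1, ENO1 and PKM were not called, with log2 fold changes between −0.41 and 0.28. The median over the 15 tested enzymes was −0.26, against 0.02 over all genes, and over the 20 other HIF targets it was 0.00 to 2 decimals. The enzyme median changed sign under quantile normalization (0.15) and with the GC and length trend removed (0.20), so no direction is given to the enzymes as a group.

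**Figure D2:**
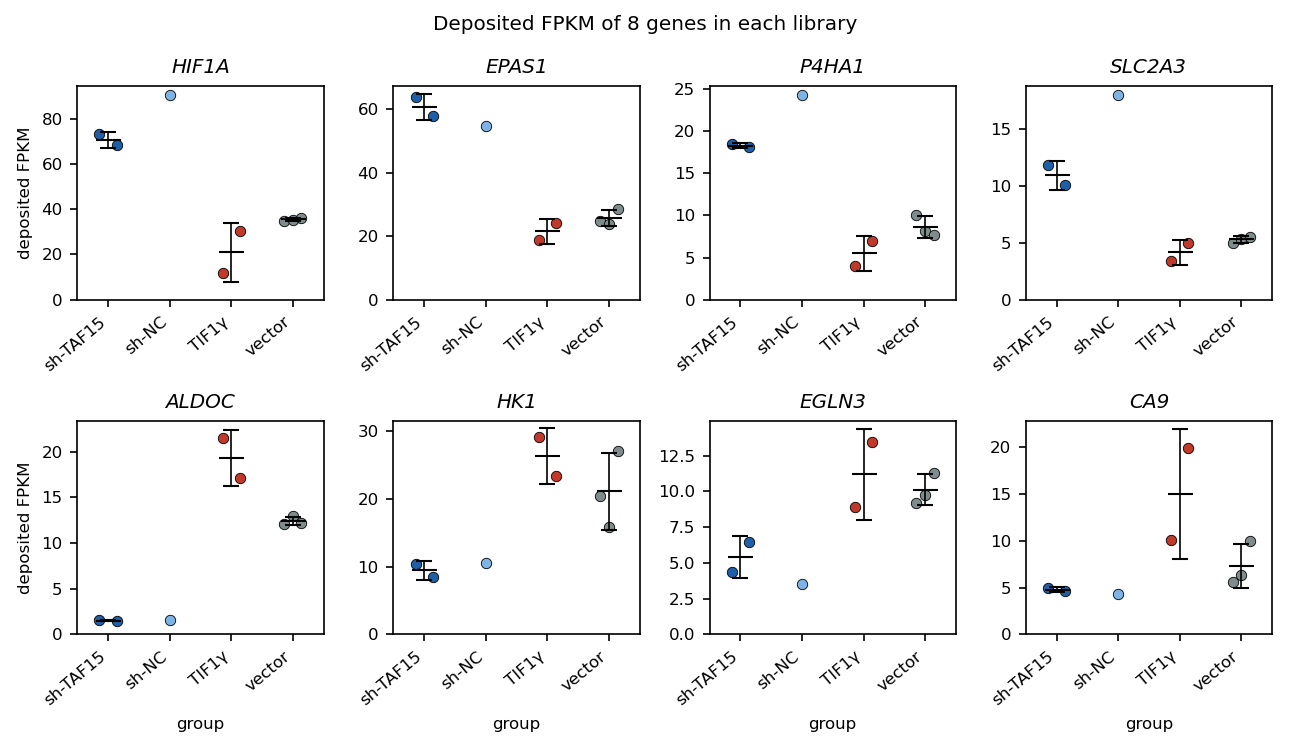
Deposited FPKM (linear axes from 0) of 8 genes called between the hairpin lines and the others; points are libraries, horizontal lines group means and error bars ± SD, with none for sh-NC (1 library). In the upper row the sh-TAF15 and sh-NC points lie above the TIF1γ and vector points, and in the lower row below them.

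Outside the pathway itself, P4HA1, the catalytic alpha subunit of collagen prolyl 4-hydroxylase, had 18.5 and 18.1 FPKM in sh-TAF15 libraries and 24.3 FPKM in the sh-NC library, against 4.03 and 6.95 FPKM in TIF1γ libraries and 10.1, 8.14 and 7.67 FPKM in vector libraries. Every hairpin library was above every other (log2 fold change 1.35 ± 0.234 SE; limma adjusted p = 7.49e-04). Its paralogue P4HA2 lay between 14.1 and 23.1 FPKM and was not called (0.12 ± 0.19 SE; limma adjusted p = 0.634). ERO1A, which reoxidises the disulfide machinery of the endoplasmic reticulum, had 17.9 and 19.3 FPKM in sh-TAF15 libraries and 19.9 FPKM in the sh-NC library, against 7.62 and 9.07 FPKM in TIF1γ libraries and 15.9, 13.1 and 12.8 FPKM in vector libraries (0.62 ± 0.203 SE; limma adjusted p = 0.025). The TIF1γ libraries were lowest, and the call was lost without TIF1γ library 2 (adjusted p = 0.0538) or without either sh-TAF15 library.

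CA9, the tumour-associated carbonic anhydrase that controls pH outside the cell, had 4.96 and 4.63 FPKM in sh-TAF15 libraries and 4.36 FPKM in the sh-NC library, against 10.1 and 19.9 FPKM in TIF1γ libraries and 5.63, 6.30 and 9.99 FPKM in vector libraries. The groups did not overlap, though vector library 1 came close (log2 fold change −1.14 ± 0.288 SE; limma adjusted p = 0.00728). PFKFB3, which makes the activator of phosphofructokinase, had 104 and 98.4 FPKM in sh-TAF15 libraries and 84.9 FPKM in the sh-NC library, against 145 and 108 FPKM in TIF1γ libraries and 142, 114 and 119 FPKM in vector libraries (−0.59 ± 0.194 SE; limma adjusted p = 0.0265). Without TIF1γ library 2, vector library 1 or either sh-TAF15 library the PFKFB3 call was lost, with adjusted p between 0.0537 and 0.0833.

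The angiogenic factor VEGFA had 20.3 and 18.3 FPKM in sh-TAF15 libraries and 26.8 FPKM in the sh-NC library, against 11.1 and 24.1 FPKM in TIF1γ libraries and 10.4, 10.4 and 14.1 FPKM in vector libraries. TIF1γ library 3 lay inside the hairpin range, and VEGFA was not called (0.53 ± 0.275 SE; limma adjusted p = 0.135); without that library it was (adjusted p = 0.0127). The vasodilator gene ADM, the mitophagy receptor genes BNIP3 and BNIP3L, the stress gene NDRG1, the histone demethylase gene KDM3A, the transcription factor genes MXI1 and BHLHE40, ANKRD37, and the flux regulators PFKFB4 and PDK1 were not called either. Their log2 fold changes lay between −0.49 and 0.73, with the highest value in KDM3A (adjusted p = 0.0618 by limma). KDM3A was called without TIF1γ library 3, vector library 2 or sh-TAF15 library 3 (adjusted p between 0.0136 and 0.0491), PDK1 without TIF1γ library 3 (0.0441) and MXI1 without TIF1γ library 2 (0.0411).

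**Figure D3:**
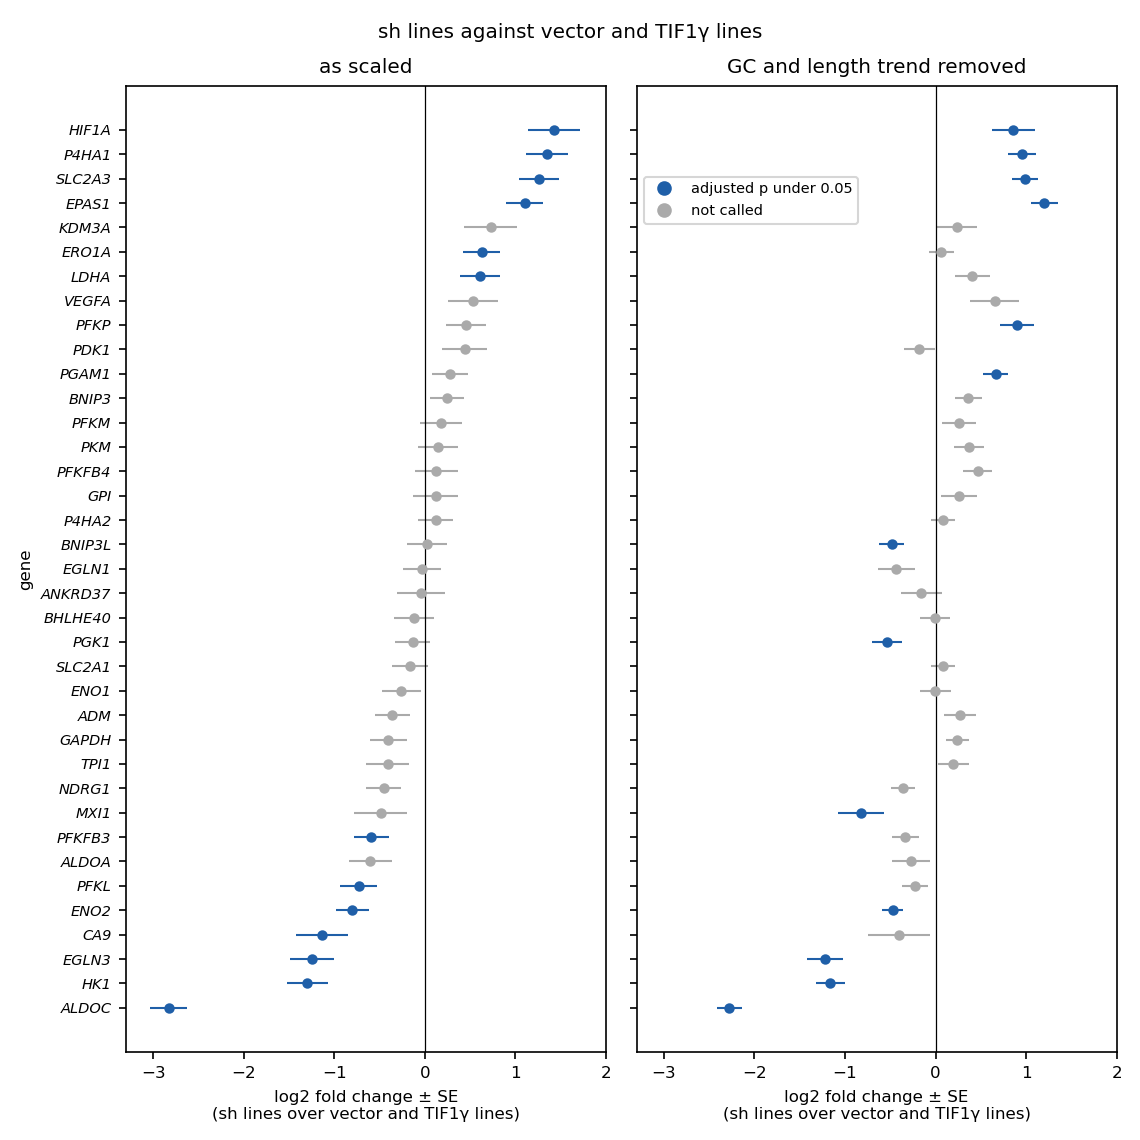
Log2 fold change ± SE of the 37 tested genes, hairpin lines over TIF1γ and vector lines, as scaled (left) and with the trend on transcript GC and length removed (right); blue marks a limma adjusted p under 0.05 and grey the rest. ALDOC lies at −2.83 on the left and −2.28 on the right, while CA9, PFKL, ERO1A, LDHA and PFKFB3 are blue on the left only.

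The contrast between the lines tracked the base composition of the transcripts. Over 11720 tested protein-coding genes, Spearman's rho between the fold change and the GC percent of the longest transcript was −0.581, and over the 37 members it was −0.524; genes share libraries, so these are descriptions. With the trend on GC and length removed, 13 members were called again, against 31.8% of all genes. Of these, 8 were the same genes: ALDOC (−2.28), HK1, ENO2, EGLN3, HIF1A (0.86), EPAS1 (1.20), P4HA1 and SLC2A3. CA9 (−0.40, limma adjusted p = 0.396), PFKL (−0.22, 0.266), ERO1A (0.07, 0.742), LDHA (0.41, 0.143) and PFKFB3 (−0.33, 0.122) were no longer called. PFKP (0.90, adjusted p = 0.00945), PGAM1 (0.67, 0.00937), PGK1 (−0.54, 0.0386), BNIP3L (−0.49, 0.0274) and MXI1 (−0.82, 0.0423) were called by limma after the removal and not as scaled, where BNIP3L stood at 0.03. ALDOC, HK1, EGLN3, HIF1A, EPAS1, P4HA1 and SLC2A3 were called under all 16 alternatives run for this contrast. On the scaled values, 12 of 37 members (32.4%) had no overlap between the 3 hairpin libraries and the 5 others, near the 34.0% of all tested genes.

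Shares within a gene family do not depend on how libraries are scaled, but they can move with base composition, which the contrast tracked. PFKP made up 84.3% and 81.0% of phosphofructokinase FPKM in sh-TAF15 libraries and 83.3% in the sh-NC library, against 74.9% and 67.5% in TIF1γ libraries and 76.8%, 75.4% and 70.9% in vector libraries. PFKL made up 9.39% on average in the hairpin lines and 18.1% in the others, and PFKM overlapped (7.74% and 8.81%). SLC2A3 was 17.8% of the transporter pair in the hairpin lines and 7.75% in the others, and P4HA1 was 48.6% of the collagen hydroxylase pair in the hairpin lines and 30.7% in the others. The minor aldolase ALDOC was 0.0545% of aldolase FPKM in the hairpin lines and 0.419% in the others, so its drop hardly moved the family total. Of 11 shares tested, those of PFKP, PFKL, ALDOA, ENO1, SLC2A1, P4HA1 and EGLN1 separated the 3 hairpin libraries fully from the 5 others. Each reached the smallest p that 56 arrangements allow (two-sided exact permutation test, p = 0.0357), and after adjustment over the 11 shares none passed (adjusted p = 0.0561). In each of 6 pairs from the fully separated shares, the isoform whose share was larger in the hairpin lines than in the other lines has the lower GC percent. An example is PFKP at 57.5% and PFKL at 64.1%. Among pairs not fully separated, HK2 against HK1 and HIF1A against EPAS1 went the same way. PFKFB4 (GC 56.8%) against PFKFB3 (55.7%) and BNIP3 (51.4%) against BNIP3L (38.9%) went the other way. With the GC and length trend removed, the log2 fold change of PFKP minus that of PFKL was 1.12, against 1.19 as scaled. For SLC2A3 minus SLC2A1 it was 0.91, against 1.42, for P4HA1 minus P4HA2 0.87, against 1.23, and for EGLN1 minus EGLN3 0.79, against 1.22. These differences kept their direction and were not tested.

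**Figure D4:**
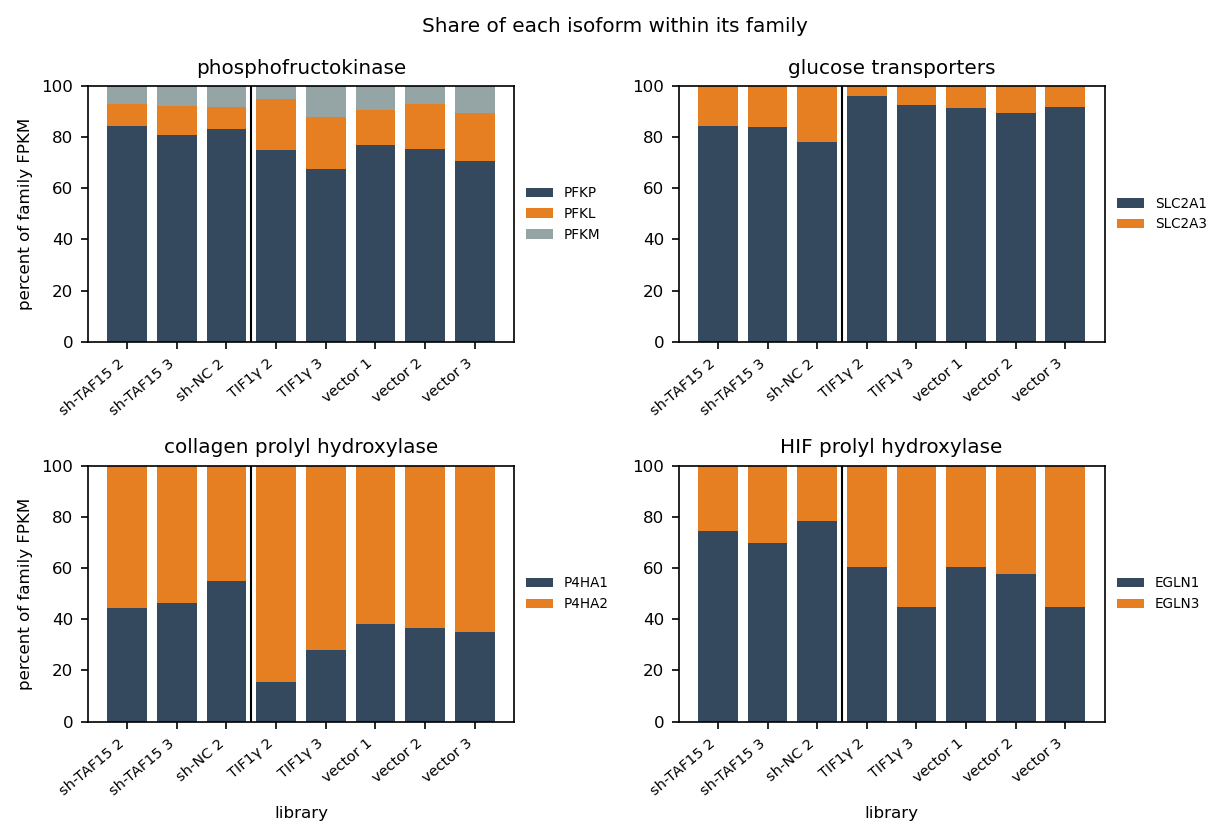
Percent of the summed FPKM of 4 gene families held by each isoform in each library; stacked bars start at 0 and the vertical line parts the hairpin lines from the others. The PFKP share is 81.0% to 84.3% left of the line and 67.5% to 76.8% right of it, and the EGLN1 share is higher left of the line in every library.

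Of the HIF core letters, ACGTG stood before more of the members than of genes at large, while GCGTG was closer to the background. The members were listed as glycolysis genes and HIF targets, so such an excess can be built into the list. The genes at large were not limited to those tested here, and no conclusion is drawn from the comparison. RefSeq windows from 250 bases before to 50 bases after a gene's start (GRCh38.p14) were matched for 34 of the 38 symbols, 60 windows in all, since a gene can have several starts whose windows may overlap. Counted per gene, ACGTG lay in a window of 21 of 34 members (61.8%), against 24.9% of 27305 genes; a gene with more windows has more chances of a match. Counted per window and read on both strands, ACGTG was in 41.7% of the 60, against 21.4% of all 35116 windows of that length; GCGTG was in 41.7% of member windows, against 36.5% of all. ACGTG lay in a window of 11 of 16 enzyme genes and 10 of 16 matched other HIF targets. A match was found for 3 of the 5 matched members called higher in the hairpin lines (ERO1A, LDHA, P4HA1) and 4 of the 7 called lower (ALDOC, CA9, ENO2, PFKFB3). These counts are small and were not tested.

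The windows of P4HA1, called higher, and of ALDOC and CA9, called lower, are shown because the same core stands before genes that moved in opposite directions. Capitals mark ACGTG or its reverse complement CACGT on the gene's strand. The P4HA1 window is chr10:73096817-73097116, minus strand, with its match 86 bases before the start. The ALDOC window is chr17:28576846-28577145, minus strand; matches begin 240, 239 and 28 bases before the start, and the pair farthest out overlap as CACGTG. The CA9 window is chr9:35673678-35673977, plus strand, with its match 18 bases before the start.
P4HA1: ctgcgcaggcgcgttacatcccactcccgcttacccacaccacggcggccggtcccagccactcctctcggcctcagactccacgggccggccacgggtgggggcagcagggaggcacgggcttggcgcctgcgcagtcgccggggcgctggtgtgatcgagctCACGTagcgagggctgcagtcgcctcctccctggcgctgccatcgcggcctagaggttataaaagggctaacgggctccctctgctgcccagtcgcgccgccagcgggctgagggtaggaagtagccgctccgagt
ALDOC: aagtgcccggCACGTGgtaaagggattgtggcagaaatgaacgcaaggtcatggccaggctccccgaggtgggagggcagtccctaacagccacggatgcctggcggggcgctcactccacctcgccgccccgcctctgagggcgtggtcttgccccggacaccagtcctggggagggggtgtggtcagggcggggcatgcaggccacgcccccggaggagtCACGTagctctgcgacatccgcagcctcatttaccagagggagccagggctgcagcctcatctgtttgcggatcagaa
CA9: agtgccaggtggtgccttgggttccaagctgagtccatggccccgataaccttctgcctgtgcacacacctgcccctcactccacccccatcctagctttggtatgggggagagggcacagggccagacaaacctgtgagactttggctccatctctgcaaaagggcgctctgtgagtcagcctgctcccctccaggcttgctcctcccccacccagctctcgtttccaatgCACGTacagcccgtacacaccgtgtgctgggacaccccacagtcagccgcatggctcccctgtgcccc

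The control lines alone already differed in several of these genes. Between the sh-NC library and the 3 vector libraries, 4 of 37 members (10.8%) were called, as were 11.0% of all tested genes. SLC2A3 (log2 fold change 1.44 ± 0.342 SE; limma adjusted p = 0.0156) and P4HA1 (1.24 ± 0.354; adjusted p = 0.0387) were higher in sh-NC. ALDOC (−2.55 ± 0.31; limma adjusted p = 1.73e-04) and EGLN3 (−1.45 ± 0.364; adjusted p = 0.0214) were lower. ENO2 (−0.88 ± 0.281 SE; limma adjusted p = 0.0599) and HK1 (−1.08 ± 0.343; adjusted p = 0.0605) came next, and HIF1A (1.16, 0.11) and EPAS1 (0.89, 0.0784) were not called. HK1 was called without vector library 2 (limma adjusted p = 0.0212), and HIF1A without TIF1γ library 2 (0.0158) or 3 (0.0157), which are in neither group of this comparison. Only ALDOC was called under all 17 alternatives: P4HA1 lost its call without vector library 3 or either sh-TAF15 library, and EGLN3 without vector library 3. These libraries also enter the contrast between the lines, so the values are not a second sample. The test rests on 1 sh-NC library, whose spread is taken from the other groups.

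Overexpression of TIF1γ called none of the 37 members against the empty vector. Of all 13907 genes limma called 3, or 0.0216%. At an unadjusted p under 0.05 there were 7 members (18.9%), against 19.9% of all genes, and 10 members (27.0%) had no overlap between TIF1γ and vector libraries, against 36.6% of all genes. ERO1A had the lowest p, at 7.62 and 9.07 FPKM in TIF1γ libraries, against 15.9, 13.1 and 12.8 FPKM in vector libraries (log2 fold change −0.75 ± 0.242 SE; limma adjusted p = 0.2). HIF1A (−0.95 ± 0.344 SE; limma adjusted p = 0.208), KDM3A (−0.88 ± 0.352; adjusted p = 0.218) and P4HA1 (−0.67 ± 0.28; adjusted p = 0.225) also had negative values. PFKL (0.60 ± 0.241 SE; limma adjusted p = 0.218) and CA9 (0.84 ± 0.344; adjusted p = 0.222) had positive ones.

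The TIF1γ libraries disagreed on several of these genes. Without TIF1γ library 2, whose HIF1A level was 11.7 FPKM, the HIF1A fold change was −0.22 (limma adjusted p = 0.788), and without TIF1γ library 3, at 30.2 FPKM, it was −1.69 (adjusted p = 0.0522). CA9 had 10.1 and 19.9 FPKM in TIF1γ libraries, against 5.63, 6.30 and 9.99 FPKM in vector libraries; its log2 fold change was 1.38 without TIF1γ library 2 and 0.30 without TIF1γ library 3. KDM3A had 1.47 and 3.92 FPKM in TIF1γ libraries, against 6.38, 5.57 and 3.78 FPKM in vector libraries. TIF1γ library 3 overlaps the vector range there.

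Most glycolytic enzymes had positive fold changes in the TIF1γ line, none past the threshold, and the values tracked GC. The median log2 fold change of the 15 enzymes was 0.28, with 13 of 15 above 0, against 0.02 over all genes and 51.3% above 0. The 20 other HIF targets had a median of 0.00 to 2 decimals, with 10 of 20 above 0. On the scaled values ALDOC, ENO2, GAPDH and PFKL were higher in both TIF1γ libraries than in any vector library, and LDHA was lower in both. These 5 of 15 enzymes (33.3%) without overlap compare with 36.6% of all tested genes, so enzymes were not apart more often. LDHA had 973 and 673 FPKM in TIF1γ libraries, against 1339.5, 1358 and 865 FPKM in vector libraries (−0.61 ± 0.263 SE; limma adjusted p = 0.234). Without TIF1γ library 2 the enzyme median was 0.10, and without TIF1γ library 3 it was 0.58. The enzyme transcripts had a median GC of 53.2%, against 48.9% for all tested protein-coding genes. PGK1 (43.3%) and LDHA (44.0%) lay below the latter. Spearman's rho between the TIF1γ fold change and GC was 0.74 over the 37 members and 0.778 over 11720 protein-coding genes. With the GC and length trend removed, the enzyme median was 0.07 and that of the other HIF targets 0.04. HIF1A then stood at −0.40, CA9 at 0.38 and PFKL at 0.18.

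**Figure D5:**
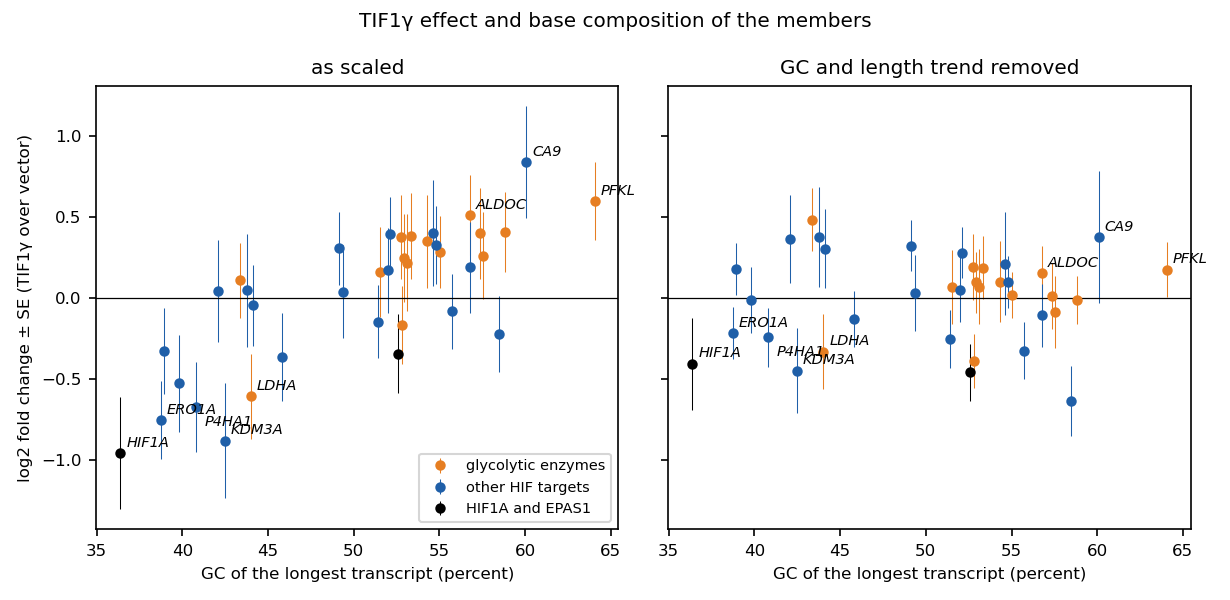
Log2 fold change ± SE of each tested gene, TIF1γ over vector, against the GC percent of its longest transcript, as scaled (left) and with the GC and length trend removed (right); colours part enzymes, other HIF targets, and HIF1A with EPAS1. On the left the values climb with GC (rho 0.74 over 37 genes) from HIF1A at −0.95 to CA9 at 0.84; on the right HIF1A is at −0.40 and CA9 at 0.38.

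None of the 37 members passed the test between the sh-TAF15 libraries and the sh-NC library. Of all genes limma called 8, or 0.0575%. At an unadjusted p under 0.05 there was 1 member (2.70%), against 5.62% of all genes. This was PDK1, a mitochondrial kinase that inhibits pyruvate dehydrogenase, with 2.30 and 1.85 FPKM in sh-TAF15 libraries, against 5.41 FPKM in the sh-NC library (log2 fold change −1.09 ± 0.398 SE; limma adjusted p = 0.697). All vector and TIF1γ libraries also had PDK1 at 2.93 FPKM or less, so the sh-NC library was the one that stood apart. SLC2A3 followed at −0.74 ± 0.362 (SE; limma adjusted p = 0.889), then NDRG1 at −0.59 ± 0.307 (adjusted p = 0.896) and KDM3A at −0.78 ± 0.472 (adjusted p = 0.94). BNIP3 (−0.47 ± 0.301 SE; limma adjusted p = 0.95) and ENO2 (0.44 ± 0.298; adjusted p = 0.952) complete the 6 lowest p. The enzyme median was −0.03 and that of the other HIF targets −0.19, against 0.00 to 2 decimals over all genes, with 1 library as the control.

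The effect of TIF1γ over vector and that of sh-TAF15 over sh-NC were compared directly. No member passed, and limma called 6 of all genes, or 0.0431%. At an unadjusted p under 0.05 there was 1 member, NDRG1, against 3.60% of all genes. NDRG1 had 54.0 and 58.1 FPKM in TIF1γ libraries, against 39.4, 39.2 and 41.5 FPKM in vector libraries, and 35.7 and 28.5 FPKM in sh-TAF15 libraries, against 46.3 FPKM in the sh-NC library. The difference of its effects was 0.98 ± 0.382 on the log2 scale (SE; limma unadjusted p = 0.0231, adjusted p = 1.00).

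Other genes of these pathways were also split in direction between the lines. Of 25 tested genes among 43 further glycolysis genes (other isoforms, monocarboxylate transporters and the pyruvate dehydrogenase system), 9 were called higher and 8 lower in the hairpin lines, together 68.0%, against the 41.6% of all genes. The list was drawn up with earlier results of these data known, so such an excess can be built into it. ENO3, the muscle enolase, had 4.04 and 3.00 FPKM in sh-TAF15 libraries and 1.92 FPKM in the sh-NC library, against 57.0 and 38.6 FPKM in TIF1γ libraries and 31.5, 30.6 and 39.3 FPKM in vector libraries (log2 fold change −3.63 ± 0.213 SE; limma adjusted p = 5.92e-08). PDK4, a further pyruvate dehydrogenase kinase, had a log2 fold change of −1.88 (limma adjusted p = 1.08e-04), LDHD of −1.54 (adjusted p = 5.49e-04) and the transporter SLC2A6 of −1.11 (adjusted p = 9.19e-04). The monocarboxylate transporter genes SLC16A1 and SLC16A3 were among those called higher.

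Of 19 tested HIF pathway partners, CUL2, EP300 and HSP90AA1 were called higher in the hairpin lines and EGLN2, ELOB and USP20 lower. Together this was 31.6%, below the 41.6% of all tested genes. CUL2, the scaffold of the VHL ligase, had a log2 fold change of 1.19 ± 0.258 (SE; limma adjusted p = 0.00304), and ELOB, an adaptor of the same ligase, of −0.98 ± 0.245 (adjusted p = 0.00674). Of 46 tested further HIF targets, 11 were called higher and 14 lower, together 54.3%, against the same 41.6%. Earlier results of these data were known when this list was chosen too, so no conclusion is drawn from the excess. The lipid droplet genes HILPDA and PLIN2 were far lower: HILPDA had 12.3 and 17.5 FPKM in sh-TAF15 libraries and 16.6 FPKM in the sh-NC library, against 285 and 257 FPKM in TIF1γ libraries and 155, 170 and 180 FPKM in vector libraries (−3.85 ± 0.194 SE; limma adjusted p = 1.65e-08). PLIN2 had 0.287 to 0.731 FPKM in the hairpin libraries, against 16.7 to 36.6 FPKM in the others (−4.36; limma adjusted p = 1.16e-07). The growth factor gene TGFA went the other way, with 11.2 and 10.0 FPKM in sh-TAF15 libraries and 7.69 FPKM in the sh-NC library, against 0.983 to 2.03 FPKM in the others (1.91; limma adjusted p = 5.79e-05). Neither TIF1γ over vector nor sh-TAF15 over sh-NC called any gene of these 3 lists by limma.

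Pseudogenes could share reads with their parent genes. Of the 38 members, 16 have named pseudogenes in the tables, 151 in all, and their summed FPKM came to at most 4.04% of the member's own in any library.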

How the data were processed

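The values analysed are FPKM as the authors deposited them, 1 table per library, with no logarithm; how they were computed from reads is not given in the sources used here. The submitters' processing notes name cutadapt 1.9.1, HISAT2 2.0.1, HTSeq 0.6.1 and the GRCh37 genome. RNA with poly(A) selection or ribosomal RNA removal was sequenced, per the labels' protocols, which do not say which step a library had. Symbols, transcript length and GC came from a GRCh38 annotation, so no GRCh37 coordinates are given.

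Genes at 1 FPKM or more in at least 2 libraries were kept, after 19 genes with an exact 0 beside 100 FPKM or more were set aside (none a member). Libraries were scaled to a common trimmed mean (30% of ratios and 5% of abundances trimmed). limma 3.58.1 in R 4.3.3 was run on log2(scaled FPKM + 1), the 4 groups in 1 fit, eBayes with trend and robust, 4 residual degrees of freedom and a median prior of 9.57; it replaced a count model because no counts were at hand. Benjamini-Hochberg adjustment ran over 13907 genes, with calls at 0.05. Folds are on the log2(FPKM + 1) scale. The GC and length trend was removed by splines in each library. The fit was tested on simulated data with independent spread and no GC trend. That run cannot show how such a trend affects the calls. Depth was read from 1-fragment steps, at which 33.8% to 40.5% of ratios lay.

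The members and lists were chosen with earlier results of these data known. Every member may be named. The naming rule set full statistics for those called and, where fewer than 6 were called, for the 6 with the lowest p. Some further members are also given with an SE. Other lists give at most 4 genes each. Same-numbered libraries of different groups correlated between −0.536 and 0.215 in their deviations, so the numbers were not taken as pairs. Alternatives were another scaling, pseudocount (0.1), filter, moderation, block and leaving out each library.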

Additional observations from a re-analysis of the deposited data

How the results depend on the processing

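No member was called in TIF1γ over vector, sh-TAF15 over sh-NC or the difference of these effects under any alternative run. Between the hairpin lines and the others 9 to 16 members were called, against 13. Over the 37 tested members and 5 contrasts there were 3108 alternative values: 43 lost a call, 32 gained one (14 gene results), and 170 changed sign, none of a called value. Among the 37 gene results that the naming rule sets, none of 616 alternative values changed sign. For the difference of effects, only NDRG1 of these is given in the text. Members given with an SE outside the rule could change sign, such as SLC2A1 and EGLN1 between the hairpin lines and the others. SLC2A1 stood at 0.08 with the GC and length trend removed, and EGLN1 reached 0.02 with a library left out. The causes of the shifts below were not tested.

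Without scaling the median of all genes was 0.15, against 0.02 with it (hairpin lines over others), and 0.16, against 0.01 (sh-NC over vector); enzyme medians were then −0.09 and −0.04, and those of other HIF targets 0.15 and 0.26. Quantile normalization gave enzyme medians of 0.15, 0.13 and, for TIF1γ, 0.12, 7 called members for sh-NC and 4 called genes for sh-TAF15. A pseudocount of 0.1 called 5 genes for TIF1γ and 21 for sh-TAF15. With no filter the counts were 0 for TIF1γ, 188 for sh-TAF15 and 103 for the difference of effects, and 2 members for sh-NC. With the GC and length trend removed, 0, 3 and 3 genes were called in those contrasts, and enzyme medians were 0.07 for TIF1γ, 0.23 for sh-NC, 0.20 for the hairpin lines and 0.07 for the difference. Keeping genes with an exact 0 called 5 genes for TIF1γ; a fit of the compared groups alone called 7 for TIF1γ and 1 for sh-TAF15.

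The replicate number as a block, which the check of deviations does not bear out as a pairing, called 44 genes for TIF1γ, 52 for sh-TAF15, 30 for the difference and 1000 for sh-NC, with 1 member for sh-NC and 10 for the hairpin lines. The block with the trend removed called 0, 2, 0 and 507 genes, 1 member for sh-NC, and 2769 genes and 9 members for the hairpin lines; enzyme medians were 0.10 for TIF1γ, 0.16 for sh-NC, 0.16 for the hairpin lines and −0.01 for the difference.

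Leaving out each library in turn, called genes ran from 1 to 295 for TIF1γ: 1 and 13 without TIF1γ libraries 2 and 3, and 7, 18 and 295 without vector libraries 1, 2 and 3. For sh-TAF15 they ran from 4 to 49, with 4 without TIF1γ library 2 or 3 or vector library 3, 17 without vector library 1 and 49 without vector library 2. For the difference they ran from 3 (without TIF1γ library 2 or 3) to 18 (without vector library 2), and members called for sh-NC from 2 (without vector library 3) to 5. Enzyme medians ran from 0.10 to 0.58 for TIF1γ, from −0.43 to −0.14 for the hairpin lines and from 0.03 to 0.52 for the difference. Those of other HIF targets ran from −0.24 to 0.00 for TIF1γ and from 0.03 to 0.43 for the difference.

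The results rest on 8 libraries, with 1 for sh-NC, and on FPKM without read totals, so what depth can show for genes under a few FPKM, such as PDK1, ALDOC in the hairpin lines or KDM3A, is unknown.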
